A study of Mus musculus with 6 samples.

Results

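The genes described here are the 10 dorsal and associative interneuron identity factors Lbx1, Tlx3, Pou4f1, Barhl1, Barhl2, Bhlhe22, Pax2, Pax8, Evx1 and Otp. A probe set, the array's unit of measurement, was taken as one of theirs where the platform's probe table gives it exactly 1 gene symbol and that symbol is on the list. This rule found 13 of 45037 probe sets, which cover 8 of the 10 genes among 18193 measured genes. Bhlhe22 and Pax2 were not analysed here. A gene with more than 1 probe set is given by the one with the highest mean over all arrays, and its other probe set is given beside it.

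The material was mouse embryos of E10.5, from which GFP-positive cells were sorted out of litter-pooled hindbrains labelled as rhombomere 4. In the swap group (n = 3 arrays) the Hoxb1 locus carried IRES-tauGFP and made another Hox protein in place of Hox-B1. In the control group, Hoxb1-IRES-tauGFP (n = 3 arrays), the locus carried the same tag and made Hox-B1. Both groups therefore carried the reporter allele, and the sort was aimed at cells in which the Hoxb1 locus was active. Whether embryos carried 1 or both modified copies is not given in the sources used here. At issue is what differs in these cells when a different Hox protein is made from this locus.

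The median intensity of an array was 118 to 139, and pairs of arrays had r of 0.885 to 0.907 over the probe sets. The median level over probe sets, an intensity of 114 (6.83 on the log2 scale), is used below as the line between brighter and dimmer probe sets, since the table has no detection calls. Precision is limited by there being 3 arrays a group. The facial motor neuron markers, which fit the labelled tissue, had 7 of 8 genes measured, all 7 above the median level. The list's log2 sum, here and below the log2 of the summed intensities of a list's genes, was 14.69 to 15.06 in the swap arrays. In the control arrays it was 14.66 to 14.75. Such a sum follows the brightest genes, here Isl1 and Tbx20, with means of 13.77 and 13.51 over the 6 arrays. The sorted material is a mixture of cells, so fewer cells of a type and less RNA per cell cannot be told apart.

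Interneurons of the hindbrain and spinal cord are born in ordered dorsoventral domains, and each domain's neurons are recognised by a combination of transcription factors. Atoh1-positive progenitors of the rhombic lip give neurons with Barhl1 and Barhl2, homeodomain factors of the BarH family. Lbx1, a homeodomain factor, marks the associative neurons of the alar plate, where Tlx3 favours excitatory and Pax2 and Pax8 accompany inhibitory neurons. Evx1 marks commissural neurons that arise near the middle of the dorsoventral axis. Pou4f1, Tlx3, Pax8 and Otp are also known outside these neurons: Pou4f1 and Tlx3 in sensory ganglia, Pax8 in the otic vesicle and at the isthmus, and Otp in the hypothalamus.

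None of the 8 measured factors was called different between the genotypes. limma called 0 of 8 at an adjusted p under 0.05, with a background of 0% of the 18193 genes. At an unadjusted p under 0.05 there was 1, Tlx3, lower in the swap arrays, against 3.63% of all genes. Of the differences, 4 were above 0 (Lbx1, Barhl1, Barhl2 and Evx1) and 4 below 0 (Tlx3, Pou4f1, Pax8 and Otp). Their median was 0.01 on the log2 scale, the same as the median of 0.01 over all genes. In 0 of 8 did the swap and control arrays stand apart without overlap, against 8.85% of all genes. The mean of 6 factors reached the median level, and those of Tlx3 and Pax8 did not.

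**Figure D1:**
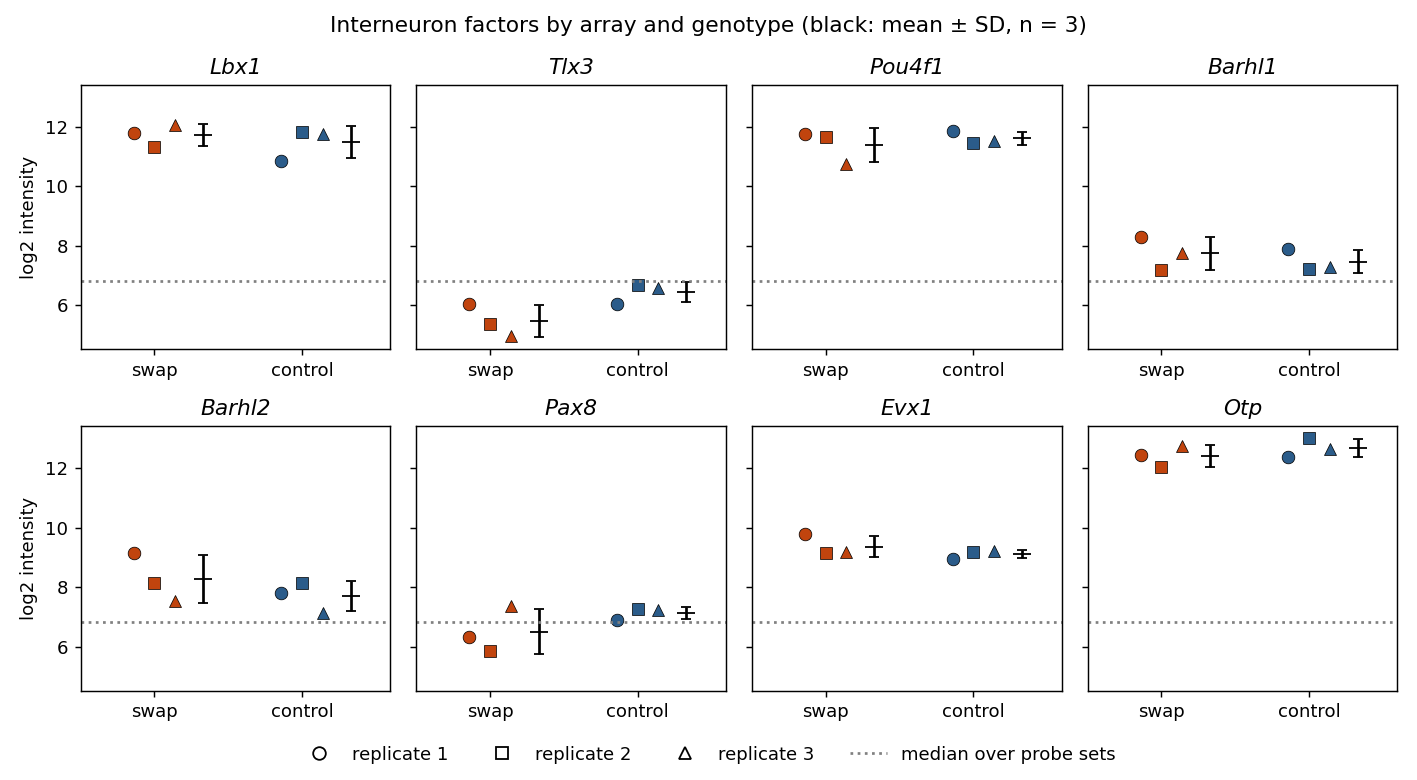
Log2 intensity (vertical axis) of the 8 measured factors in each swap array (orange, left) and control array (blue, right), with the mean and SD of each genotype (n = 3) in black and the median level of all probe sets, 6.83, dotted. The genotypes overlap in every panel, and heights are comparable within a panel only, since each gene has its own probes.

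The factor of associative neurons, Lbx1, was bright in all arrays. It stood at log2 intensities of 11.79, 11.33 and 12.07 in swap arrays 1, 2 and 3, and at 10.86, 11.82 and 11.76 in control arrays 1, 2 and 3. Control array 1 was the lowest and swap array 3 the highest, and the genotypes overlapped. The means were 11.73 ± 0.37 in the swap arrays and 11.48 ± 0.54 in the control arrays (SD, n = 3 each). The log2 difference was 0.25, with an SE of 0.37, a 95% interval of -0.67 to 1.16 and an adjusted p of 1.00 in limma. This is 1.19-fold, with an interval of 0.63 to 2.24. Without control array 1 the difference was -0.06. The other Lbx1 probe set gave 0.10 (SE 0.51), with control array 1 again the lowest at 7.02.

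Tlx3, which selects the excitatory fate in dorsal neurons and is also expressed in sensory ganglia, had the largest difference of the 8 and a low level. Its 1 probe set stood at 6.06, 5.38 and 4.98 in swap arrays 1, 2 and 3, and at 6.06, 6.69 and 6.60 in control arrays 1, 2 and 3. Swap array 1 and control array 1 had the same rounded intensity of 66.8, with control array 1 marginally the lower. The genotypes therefore just overlapped, and the other control arrays lay above the other swap arrays. The log2 difference was -0.97 (SE 0.37, 95% interval -1.88 to -0.07), with an unadjusted p of 0.0387 and an adjusted p of 1.00 in limma. An exact permutation test gave a two-sided p of 0.2, where 0.1 is the smallest that 3 against 3 arrays can give. In intensity units the swap arrays were at 66.8, 41.8 and 31.5 and the control arrays at 66.8, 103 and 97.2, all below the median intensity of 114. Without swap array 3 the difference was -0.73, and without swap array 1 it was -1.27.

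Pou4f1, a POU-domain factor of dorsal neurons and sensory ganglia, was bright and was measured by 2 probe sets. The brighter one stood at 11.77, 11.67 and 10.74 in swap arrays 1, 2 and 3, against 11.85, 11.46 and 11.51 in control arrays 1, 2 and 3. Only swap array 3 lay clearly below the rest, and in intensity it was at 1710 where the other 5 arrays were between 2820 and 3700. Between genotypes the log2 difference was -0.21 (SE 0.35, 95% interval -1.08 to 0.65), and without swap array 3 it was 0.11. The other probe set was steadier, at 9.65, 9.32 and 9.37 in the swap arrays and 9.81, 9.32 and 9.43 in the control arrays. It did not set swap array 3 apart, and its difference of -0.07 had an interval of -0.68 to 0.54, within 2-fold. The low value of swap array 3 thus rests on 1 of the 2 probe sets.

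Markers of sensory ganglia were read beside Tlx3 and Pou4f1. Of 13 listed ganglion genes 11 were measured, 9 of them at or above the median level, and 0 passed limma's test. The log2 sum of the list was 12.79, 12.74 and 12.93 in swap arrays 1, 2 and 3, and 12.89, 12.95 and 12.87 in the control arrays. Its median difference was -0.06, with Eya2 at 0.65 (SE 0.31), Ntrk3, a neurotrophin receptor, at -0.54 (SE 0.29) and Eya1 at 0.32 (SE 0.26). Eya2, higher in the swap arrays, was the 1 gene of the 11 whose arrays did not overlap, against 8.85% of all genes. The list's brightest genes were Neurod1, Ret and P2rx3. Neurod1 averaged 10.78 ± 0.15 in the swap and 10.87 ± 0.13 in the control arrays (SD, n = 3 each). In the same order Ret averaged 10.71 ± 0.04 and 10.92 ± 0.47, and P2rx3 9.94 ± 0.22 and 10.05 ± 0.14. The part of ganglion cells in the values of Tlx3 and Pou4f1 was not tested.

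The rhombic lip factors Barhl1 and Barhl2 had positive differences that depended on swap array 1. Barhl2 stood at 9.13, 8.14 and 7.53 in swap arrays 1, 2 and 3, and at 7.79, 8.14 and 7.14 in control arrays 1, 2 and 3. Swap array 1 was the highest and both replicate 3 arrays were the lowest. Its log2 difference came to 0.57 (SE 0.50, 95% interval -0.66 to 1.80) with an adjusted p of 1.00 in limma, and without swap array 1 it was 0.14. Barhl1 stood at 8.29, 7.18 and 7.77 in the swap arrays and 7.90, 7.22 and 7.30 in the control arrays, again highest in swap array 1. Its difference was 0.27 (SE 0.38, 95% interval -0.66 to 1.20), and it was 0.00 without swap array 1. The other Barhl1 probe set, below the median level, gave -0.07 with a wide interval of -2.01 to 1.87. Swap array 1 also had the highest 3′ to 5′ signal difference of the RNA control probes, 2.92 for Actb and 1.93 for Gapdh, against at most 2.67 and 1.41 in the other arrays. The part of RNA quality in these values was not tested.

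Pax8, a paired-domain factor that accompanies Pax2 in inhibitory interneurons, lay just below the median level. It stood at 6.33, 5.85 and 7.35 in swap arrays 1, 2 and 3, and at 6.89, 7.25 and 7.23 in control arrays 1, 2 and 3. Swap arrays 1 and 2 were the lowest of the 6 and swap array 3 was the highest, while the control arrays were close together. The fit gave a log2 difference of -0.61 (SE 0.43, 95% interval -1.66 to 0.45) with an adjusted p of 1.00 in limma. It was -1.03 without swap array 3 and -0.28 without swap array 2. The other Pax8 probe set was dim, between 2.44 and 6.20, and its difference of 0.16 had an SE of 1.20.

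Otic and isthmic markers were read beside Pax8. Of 13 listed otic genes 12 were measured and 4 lay at or above the median level, with a log2 sum of 11.49 to 11.80 in the swap arrays and 11.27 to 11.53 in the control arrays. Oc90, the otoconial gene that marks the otic vesicle, was at 5.72 to 7.08 in the swap arrays and 6.73 to 7.16 in the control arrays. Fbxo2 (0.71, SE 0.25), Hmx2 (0.79, SE 0.40) and Gbx2 (0.46, SE 0.26) had the smallest p of that list. The means of Fbxo2 and Hmx2 lay below the median level. Fbxo2, higher in the swap arrays, was the 1 otic gene of 12 whose arrays did not overlap, against 8.85% of all genes. The 7 isthmus and midbrain genes were all measured. Their log2 sum was at least 9.88 in the swap arrays and at most 9.66 in the control arrays, without overlap. Otx2 weighed most in this sum, at intensities of 905, 745 and 597 in the swap arrays and 356, 382 and 357 in the control arrays. It was the 1 gene of the 7 whose arrays did not overlap, against 8.85% of all genes. Of the 7 genes, 5 had differences above and 2 below 0, and 2 lay at or above the median level. Otx2, which defines the midbrain side, led that list at 1.02 (SE 0.24, limma's adjusted p = 0.818), while Wnt1 was at 1.00 (SE 1.02) and En1 at -0.44 (SE 0.45). Pax5 and Fgf8, which share the isthmus with Pax8, stood at group means of 3.97 and 2.22 in the swap arrays and 3.60 and 2.46 in the control arrays, far below the median level. Their part in the Pax8 value was not tested.

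Evx1, a homeodomain factor of commissural neurons, was the most tightly measured of the 8. It stood at 9.77, 9.13 and 9.18 in swap arrays 1, 2 and 3, and at 8.95, 9.19 and 9.20 in control arrays 1, 2 and 3. Apart from a high swap array 1 and a low control array 1, the arrays lay between 9.13 and 9.20. For Evx1 the log2 difference was 0.24 (SE 0.27, 95% interval -0.42 to 0.91), the 1 interval among the 8 that lay within 2-fold. Without swap array 1 the difference was 0.04, and with both replicate 1 arrays left out it was -0.05.

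Otp, a homeodomain factor known from the hypothalamus and from hindbrain neurons, was bright in both genotypes. It stood at 12.45, 12.02 and 12.73 in swap arrays 1, 2 and 3, and at 12.37, 13.00 and 12.65 in control arrays 1, 2 and 3. Swap array 2 was the lowest and control array 2 the highest, with the other 4 arrays between them. The Otp difference was -0.27 on the log2 scale (SE 0.30, 95% interval -1.02 to 0.47) with an adjusted p of 1.00 in limma, and without swap array 2 it was -0.09. The other Otp probe set was dim and gave 0.77 (SE 1.03), since control array 2, the brightest array for the first probe set, was its lowest at 3.15. The 2 probe sets of Otp therefore did not measure the arrays alike.

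Markers of the hypothalamus and forebrain were read beside Otp. Of 11 listed genes 9 were measured, 5 of them with a mean that reached the median level. The log2 sum of the list was 11.08 to 11.64 in the swap arrays and 11.34 to 11.68 in the control arrays. Sim1, needed beside Otp for hypothalamic neurons, was at 5.86, 5.24 and 6.38 in the swap arrays and 6.83, 5.32 and 6.52 in the control arrays. Control array 1 was at the median level and the other arrays were below it. Nkx2-1 averaged 7.46 ± 0.49 and 7.09 ± 0.67 (SD, n = 3 each) in the swap and control arrays. Rax (1.94, SE 0.65), Lhx2 (1.01, SE 0.37) and Dlx1 (-0.56, SE 0.30) had the smallest p of that list.

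Hox proteins bind DNA together with Pbx proteins at the motif TGATNNAT, so the promoter windows of the factors were searched for it on both strands. The windows, from RefSeq on GRCm38.p6, run from 250 bases before to 50 after a gene's start, and 8 of the 10 genes had 11 of them, with none for Lbx1 and Bhlhe22. Only 1 window held the motif, that of Otp, and 8.85% of all 32851 windows hold it. The stretch is shown because it is the 1 match among the factors, 26 bases after the start, on the plus strand at chr13:94875651-94875680, with the motif in capitals.
Otp: tttcatttaggTGATCTATatatatctata
A match to these letters is a description and shows no binding.

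**Figure D2:**
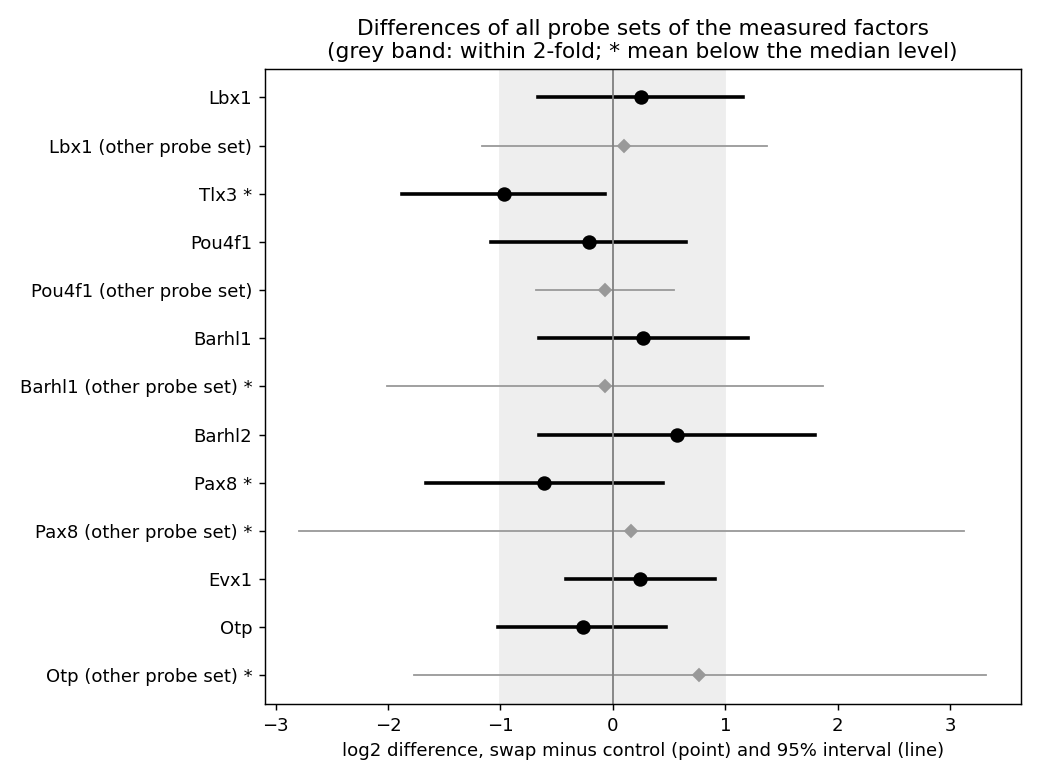
Log2 difference, swap minus control (horizontal axis, points), with its 95% interval from limma (lines) for all 13 probe sets of the 8 measured factors, gene-level probe sets in black and others in grey. The interval of Tlx3 (-1.88 to -0.07) leaves out 0 before adjustment, and only Evx1 and the second Pou4f1 probe set lie wholly within 2-fold.

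Arrays of the same genotype differed widely for some of the factors. A 95% interval within 2-fold was reached by 1 of the 8 factors, against 43.4% of all genes. For each factor the within-genotype SD was set beside the 500 genes nearest to it in level. Lbx1 had an SD of 0.46 where the median of such genes was 0.19, larger than in 97.2% of them. For Pou4f1 it was 0.43 against 0.20 (larger than in 94.8%), for Otp 0.34 against 0.16 (93.8%) and for Barhl2 0.67 against 0.34 (93.8%). Evx1, Pax8 and Barhl1 were near the middle (54.1%, 52.5% and 64.3%), and Tlx3 varied less than most genes of its low level (11.2%).

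The arrays that were low for Lbx1 were also low for some of its partner genes, across genotypes. This reading, with the genes and the pair of arrays, was chosen after the values were seen, and it is a description with no test. Lbx1 was lowest in control array 1 and second lowest in swap array 2. Lhx1, a LIM factor of inhibitory interneurons, was at 11.00, 10.23 and 11.75 in swap arrays 1, 2 and 3 and at 9.98, 11.52 and 11.44 in control arrays 1, 2 and 3, with the same arrays lowest. Skor1, a corepressor that acts with Lbx1, was at 11.78, 11.22 and 12.74 in the swap arrays and 9.45, 11.92 and 11.90 in the control arrays, a range of 3.29.

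The vesicular glutamate transporter Slc17a6 and the GABA-synthesising enzymes Gad1 and Gad2 had the same 2 arrays lowest, as had Otp and Evx1. Lhx5 and Lmx1b, also of associative neurons, did not follow it: Lhx5 was lowest in swap arrays 2 and 1, and Lmx1b in swap array 1 and control array 2. Among genes at or above the median level, these were the 2 lowest arrays for 3 of 6 of the interneuron factors, Lbx1 included, 3 of 13 other interneuron factors and 3 of 4 transmitter genes. By the same count it was 1 of 8 dorsal progenitor factors, 4 of 9 ganglion markers, 1 of 7 facial motor neuron markers and 0 of 10 mesenchyme markers. Over all genes at that level the share was 8.27%, and since the pair was taken from the values of Lbx1, the counts support nothing beyond these arrays. Control array 1 was also the lowest in the summed macrophage markers (log2 8.96, against 10.57 to 13.94 in the other 5 arrays) and in the summed mesenchyme markers (11.65, against 11.90 to 13.29). Erythroid markers were lowest in swap array 1 (13.94, against 14.36 to 15.05). The part of these cells in the pattern was not tested.

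Barhl2 followed another order, which Atoh1 shared. This too was chosen after the values were seen. Atoh1, the proneural factor of the rhombic lip, was at 8.25, 7.54 and 5.52 in swap arrays 1, 2 and 3 and at 6.85, 7.18 and 4.03 in control arrays 1, 2 and 3. It ranked the 6 arrays as Barhl2 did, from control array 3 at the bottom to swap array 1 at the top. Its range was 4.22 and its mean lay below the median level. Msx1, a dorsal midline factor, had the same 2 arrays lowest and the same 2 highest. Olig3, a dorsal progenitor factor, was also highest in swap arrays 1 and 2, but lowest in control array 2. Barhl1, Lhx2 and Lhx9, of the same lineage, did not follow it: Barhl1 was lowest in swap array 2 and control array 2, and Lhx2 and Lhx9 in control array 1. The replicate 3 arrays were the 2 lowest for 1 of 8 dorsal progenitor factors and 1 of 6 of the interneuron factors at or above the median level, near the 9.73% of all genes at that level.

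**Figure D3:**
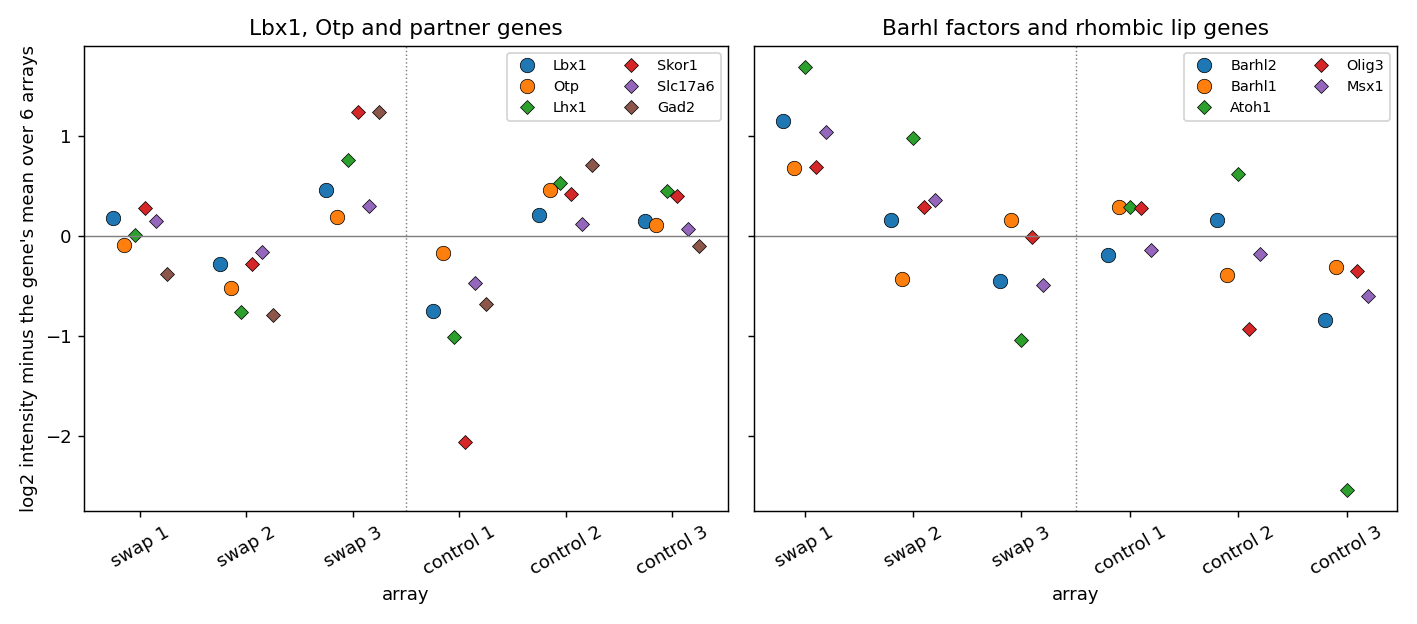
Log2 intensity minus the gene's mean over the 6 arrays (vertical axis) in each array (horizontal axis), with circles for the factors and diamonds for related genes. The genes shown on the left were chosen because they are low in swap array 2 and control array 1, as Lbx1 and Otp are; on the right, Barhl2 and Atoh1 are highest in swap array 1 and lowest in control array 3.

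Other genes of these programmes gave no call either. Of 13 dorsal progenitor factors 12 were measured, 6 with differences above and 6 below 0, with a median of 0.03 and 0 past limma's test. The log2 sum of the list was 13.38 to 13.56 in the swap arrays and 13.28 to 13.33 in the control arrays, without overlap. Bright genes such as Pax3 and Neurog2 weigh most in this sum, and the arrays of both overlapped. Only Neurog1 and Gsx2 did not overlap, 2 of 12 against 8.85% of all genes, and both were lower in the swap arrays. Progenitor factors with the smallest p were Gsx2 (-1.15, SE 0.31, limma's adjusted p = 0.917, at a mean far below the median level), Neurog1 (-0.52, SE 0.26) and Olig3 (0.66, SE 0.39). Of 21 other interneuron identity factors 18 were measured, 8 above and 10 below 0, with a median of -0.06 and 0 past the test. The smallest p belonged to the LIM factors Lhx2 (1.01, SE 0.37, adjusted p = 1.00) and Lhx9 (0.84, SE 0.38), which mark neurons of the Atoh1 lineage, and to Bhlhe23 (1.41, SE 0.71). The mean of Bhlhe23, 4.38, lay far below the median level. Of the 18 genes only Lhx2 had arrays without overlap, higher in the swap group, against 8.85% of all genes.

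Set side by side, the factors of the Atoh1 lineage, Atoh1, Barhl1, Barhl2, Lhx2 and Lhx9, all had differences above 0, at 1.08, 0.27, 0.57, 1.01 and 0.84. In the same order the SEs were 1.09, 0.38, 0.50, 0.37 and 0.38, and the mean of Atoh1 lay below the median level. The other Barhl1 probe set was at -0.07. This grouping was chosen after the values were seen and has no test, and none of the 5 genes passed. Pou4f1, which those neurons also express, was at -0.21. Among the genes of associative neurons, Lbx1, Tlx3, Pax8, Lhx1, Lhx5, Lmx1b and Skor1 were at 0.25, -0.97, -0.61, 0.02, -0.35, 0.07 and 0.82, with SEs of 0.36 to 0.80.

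The transmitter genes had 6 of 7 measured and a median difference of 0.12, with 0 past limma's test. Gad1 stood at 8.21, 7.26 and 8.98 in swap arrays 1, 2 and 3 and at 8.07, 8.98 and 9.19 in control arrays 1, 2 and 3, a difference of -0.60 (SE 0.54). The vesicular inhibitory transporter Slc32a1 was at -0.28 (SE 0.29) and the glycine transporter Slc6a5 at 0.87 (SE 1.00). Slc17a6 averaged 9.83 ± 0.23 in the swap arrays and 9.64 ± 0.33 in the control arrays (SD, n = 3 each), a difference of 0.19 with an interval of -0.49 to 0.87.

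**Figure D4:**
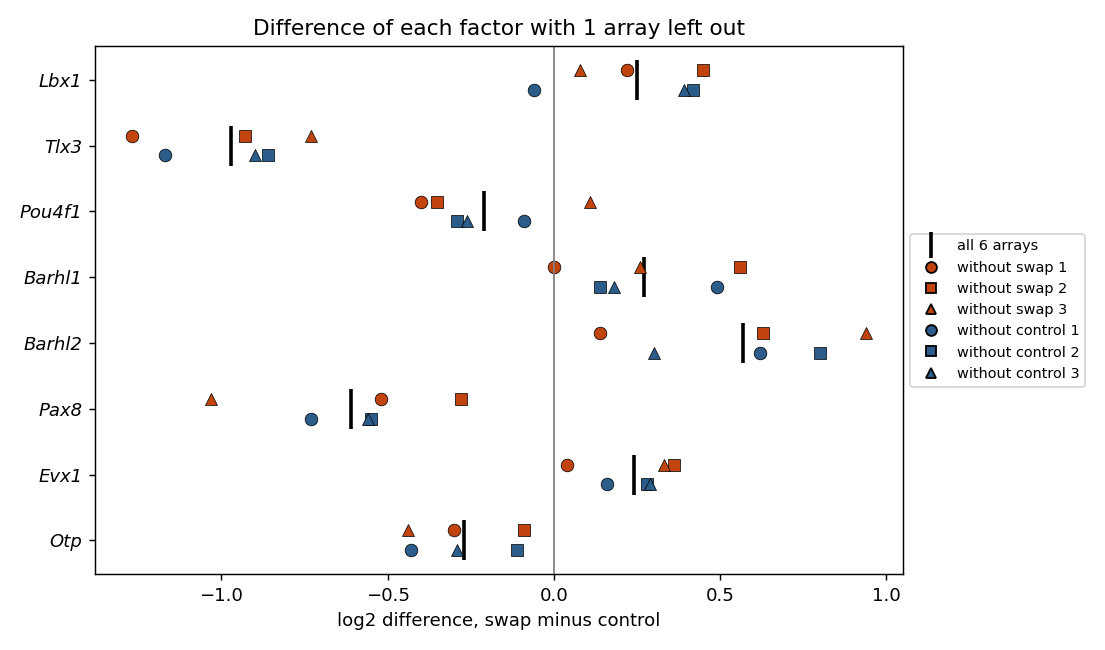
Log2 difference, swap minus control (horizontal axis), of each factor with all 6 arrays (black bar) and with 1 swap array (orange) or 1 control array (blue) left out. Tlx3 stays between -1.27 and -0.73, whereas Lbx1 and Pou4f1 each turn sign without 1 array and Barhl1 comes to 0.00 without swap array 1.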

How the data were processed

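Amplified, biotin-labelled RNA of the sorted cells was measured on Affymetrix arrays, per the labels and the series design. The authors deposited 1 linear intensity per probe set and array, made with the affy package per the submitters' processing notes, with version and methods not given in the sources used here. On every array the 2% trimmed mean of the deposited values is 500. Log2 was taken with no offset. After 64 array control probe sets were removed, 34945 of 45037 had 1 gene symbol, 932 several and 9160 none, and 34741 of the Entrez identifiers matched RefSeq's gene table.

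Differences are swap minus control, fitted over all probe sets with limma 3.58.1 in R 4.3.3 (lmFit, eBayes), two-sided, with Benjamini-Hochberg adjustment over all probe sets and a threshold of 0.05. The p-values set a difference of means against the spread between arrays of the same genotype, each made from litter-pooled material. Every factor was named. From each gene list those past the threshold were named, or up to 3 with the smallest p where none passed. The 3 brightest ganglion markers and the brightest genes of some summed lists were also named. Genes named for the order of arrays or as a lineage, and the markers Oc90, Pax5, Fgf8, Sim1 and Nkx2-1, were chosen after their values were seen. The factors and lists were chosen with earlier results of these data known. The scripts were tested on simulated data. The alternatives tried were a replicate block, a filter on dim probe sets, other normalizations, priors, weights and an offset of 16, other ways of joining probe sets, and leaving out each array. The gene of the replacing Hox protein is not reported here.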

Additional observations from a re-analysis of the deposited data

How the results depend on the processing

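limma called 0 probe sets, 0 of the 8 factors and 0 listed genes under each alternative that gave such a count, and the smallest adjusted p over all probe sets and settings was 0.241. Leaving out both replicate 1 arrays was chosen after seeing the data. Of 126 differences of the 8 factors under 16 alternatives, 117 kept their direction, 9 turned and 0 became called, with adjusted p from 0.669 upward. Lbx1 turned to -0.06 without control array 1 and to -0.09 with both replicate 1 arrays left out. Evx1 turned to -0.05 with both left out, Pou4f1 to 0.11 without swap array 3, and Barhl1 to 0.00 without swap array 1. With the probe set of highest variance, Barhl1 was -0.07, Pax8 0.16 and Otp 0.77, and Otp was 0.25 with the mean of its probe sets. With 1 array left out the differences ranged from -0.06 to 0.45 for Lbx1, -0.40 to 0.11 for Pou4f1 and 0.00 to 0.56 for Barhl1. The cause was not tested. The number of factors whose arrays do not overlap was 0 with all 6 arrays and 0 to 2 with 1 array left out. They were Barhl2 and Pax8 without swap array 3, where 19.6% of all genes do not overlap, and Tlx3 without swap array 1 or control array 1 (16.8% and 20.4%). With both replicate 1 arrays left out it was 2, Tlx3 and Evx1, against 31.1%.

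The replicate numbers share no stated litter or day, so they were not taken to pair the arrays. Deviations of same-numbered arrays from their group means correlated at 0.23, 0.03 and 0.22. Those of differently numbered arrays correlated at -0.29 to 0.12, so the 0.23 and 0.22 were above every differently numbered pair. Whether same-numbered arrays shared a batch was not tested. With the replicate block limma called 0 probe sets (2323 at an unadjusted p under 0.05, against 2060 without it), and Tlx3 kept a difference of -0.97 with an unadjusted p of 0.0914. Tlx3 and Pax8 were left out by the filter at the median level. With 3 arrays a genotype, the intervals of 7 of the 8 factors reached beyond 2-fold.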

Other observations

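Evx1os, a transcript annotated as antisense to Evx1 and chosen after its values were seen, had 1 probe set. It stood at 8.99, 8.10 and 8.08 in swap arrays 1, 2 and 3, and at 7.49, 8.39 and 7.68 in control arrays 1, 2 and 3. Swap array 1 was the highest and control array 1 the lowest, as for Evx1, and the genotypes overlapped. The log2 difference was 0.54 (SE 0.39, limma's adjusted p = 1.00).

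The macrophage list had 9 of 10 genes measured, with Aif1 (-2.50, SE 1.17), Ptprc (1.22, SE 1.22) and C1qa (1.25, SE 1.51) at the smallest p. The erythroid list had 8 of 10 measured, all 8 with differences below 0 and a median of -0.28. Hba-a1 (-1.58, SE 0.35, limma's adjusted p = 0.771), Alas2 (-1.84, SE 1.07) and Hba-x (-0.62, SE 0.74) had its smallest p. The means of Hba-a1 and Alas2, 4.93 and 4.96, lay far below the median level. The bright genes Hbb-y and Hbb-bh1 were at -0.15 (SE 0.30) and -0.27 (SE 0.52). Only Hba-a1 had arrays without overlap, 1 of 8 genes against 8.85% of all genes. The mesenchyme list had 12 of 13 measured and a median of -0.18, with Alx1 (-0.53, SE 0.55), Dlx5 (0.29, SE 0.32) and Twist1 (-0.23, SE 0.29). In the facial motor neuron list Gata3 (-0.42, SE 0.25), Phox2a (-0.50, SE 0.31) and Nkx6-1 (0.21, SE 0.27) had the smallest p. Gata3 was the 1 gene of the 7 measured there whose arrays did not overlap, lower in the swap group, against 8.85% of all genes. limma called 0 genes in each of these lists.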
